A study of Homo sapiens with 9 samples.

Results

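The FOS and JUN genes encode the core subunits of activator protein 1 (AP-1), and 7 of them were followed here: FOS, FOSB, FOSL1 and FOSL2 of the FOS family, and JUN, JUNB and JUND of the JUN family. They were taken by name from the 60664 genes listed in the count files, and the family was selected on the fall of FOSB at 8 cP in scramble cells, which was already known. All 7 of 7 were among the 18264 genes that passed the filter on low counts and were tested. The cells were MDA-MB-231, an established human breast cancer line of the triple-negative, mesenchymal-like kind, sampled on day 6 of culture as poly(A) RNA. SC cells carried a non-targeting scramble hairpin and were kept in medium of 0.77 cP (n = 3) or 8 cP (n = 3), the higher viscosity being reached with methylcellulose. shTRPV4 cells carried a hairpin against TRPV4, a calcium-permeable cation channel, and were kept at 8 cP only (n = 3), so viscosity was not varied under the knockdown. Both hairpins came from stable lentiviral transduction with puromycin selection, a treatment that all 3 groups therefore share. No source used here says that the 3 samples of a group were separate cultures, and p-values measure only the spread between these samples, which may be technical. The time from the last change of medium to lysis is not given in the sources used here.

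AP-1 is a dimer of basic leucine zipper proteins that binds the palindromic TRE and the related CRE in DNA. JUN proteins can pair among themselves or with FOS proteins, whereas FOS proteins need a partner such as JUN to bind. FOS, FOSB, JUN and JUNB are classical immediate early genes, switched on within minutes by serum, growth factors, calcium or stress and shut off again soon after, while FOSL1 (encoding FRA-1) accumulates more slowly and is known for its high level in triple-negative breast cancer cells. CArG boxes bind serum response factor, and CREs bind CREB and ATF proteins, both of which are known to act on promoters of this family.

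The 4 FOS family genes each had 4 exons in their reference transcript and the 3 JUN family genes 1 exon each. On GRCh38 the FOS gene (ENSG00000170345) lies on chromosome 14 from 75278826 to 75282230 and the FOSB gene (ENSG00000125740) on chromosome 19 from 45467995 to 45475179, both on the plus strand. FOSL1 (ENSG00000175592) lies on the minus strand of chromosome 11 from 65892049 to 65900573, and FOSL2 (ENSG00000075426) on the plus strand of chromosome 2 from 28392448 to 28417317. JUN (ENSG00000177606) lies on the minus strand of chromosome 1 from 58776845 to 58784048. JUNB (ENSG00000171223, plus strand, 12791486 to 12793315) and JUND (ENSG00000130522, minus strand, 18279694 to 18281622) are both on chromosome 19. JUNB shares 259 exon bases with HOOK2 on the other strand. No other member shares exon bases with another gene.

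The promoter stretches that hold response elements are shown for the members in which such elements were found. The 500 bases upstream of the RefSeq start were searched on both strands for the TRE (TGACTCA), the CRE (TGACGTCA), the octamer TGACNTCA, which also takes in every CRE, and the CArG box. Of the 7 members, 6 were in the RefSeq promoter table, and FOSL1 was not matched. Matches are in capitals, each is written 5′ to 3′ on the strand of its gene, and coordinates are those of the printed stretch on GRCh38.

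FOS CArG box, chr14:75278505-75278532, plus strand, 314 bases upstream: acaggatgtCCATATTAGGacatctgcg

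FOSB CArG box, chr19:45467713-45467740, plus strand, 274 bases upstream: ggccgagctCCTTATATGGctaattgcg

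FOSB CRE, chr19:45467662-45467687, plus strand, 325 bases upstream: gattccctcTGACGTCAttgctagga

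JUN octamer, chr1:58784098-58784123, minus strand, 67 bases upstream: gccttggggTGACATCAtgggctatt

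JUND CRE, chr19:18281806-18281831, minus strand, 200 bases upstream: ccgcccccaTGACGTCAacccacaag

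A CArG box was found in 2.43% of 35116 RefSeq promoters, a CRE in 1.98%, the octamer in 10.9% and the TRE in 7.36%. FOSB was the member with both a CArG box and a CRE. FOSL2 and JUNB held none of the searched letters, and none of the 6 held a TRE. These are matches of letters and do not show that a factor binds there.

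Library totals ran from 64571681 to 103518036 counts. The targeted gene was checked first: TRPV4 had 40, 28 and 54 counts in SC cells at 0.77 cP, 64, 45 and 24 in SC cells at 8 cP, and 7, 1 and 13 in shTRPV4 cells. In CPM (counts scaled to a common library size of 1000000) it was 5.68-fold lower in shTRPV4 than in SC cells at 8 cP (log2 fold change -2.51, SE 0.492, edgeR adjusted p = 0.00219). The 5 mesenchymal markers (VIM, CD44, CAV1, AXL, MSN) all exceeded 1 CPM in every group, with summed levels of 4650 to 4980 CPM at 0.77 cP, 4960 CPM in all SC samples at 8 cP and 4700 to 4790 CPM in shTRPV4 cells. Of the 5 luminal markers, ESR1, PGR and FOXA1 were near 0 and KRT19 and GATA3 were detected, and their summed level was 699 to 808, 544 to 619 and 497 to 573 CPM. Fibroblast markers summed to 33 to 40.7, 21.3 to 25.1 and 18.9 to 22.4 CPM, with PDGFRA and DCN near 0. Leukocyte markers summed to 5.43 to 6.5, 3.9 to 4.67 and 3.1 to 4.25 CPM, nearly all of it CD14. All of these sums other than the mesenchymal one were highest at 0.77 cP, as most members were. The luminal sum was almost all KRT19 (749, 581 and 516 CPM) and the fibroblast sum mostly COL1A2 (29.5, 17.4 and 15.2 CPM), whereas GATA3 (12.2, 12.8 and 15.8 CPM) and LUM (0.766, 0.690 and 1.47 CPM) were highest in shTRPV4 cells. The part of these markers in the results was not tested.

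The first comparison asked what 6 days at 8 cP did to AP-1 subunit transcripts in SC cells. FOSB and FOS stood lowest relative to baseline, JUNB and JUN followed, JUND and FOSL2 were modestly lower, and FOSL1 was slightly higher. Because the family was selected on this contrast, its values are given as a description and no p is printed for them. All 7 members were called, 1 higher and 6 lower, where 19.3% of all tested genes were called (9.57% higher, 9.69% lower). None of the 7 overlapped between the groups in CPM, which held for 38.4% of all genes. Nothing is read from these counts.

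**Figure D1:**
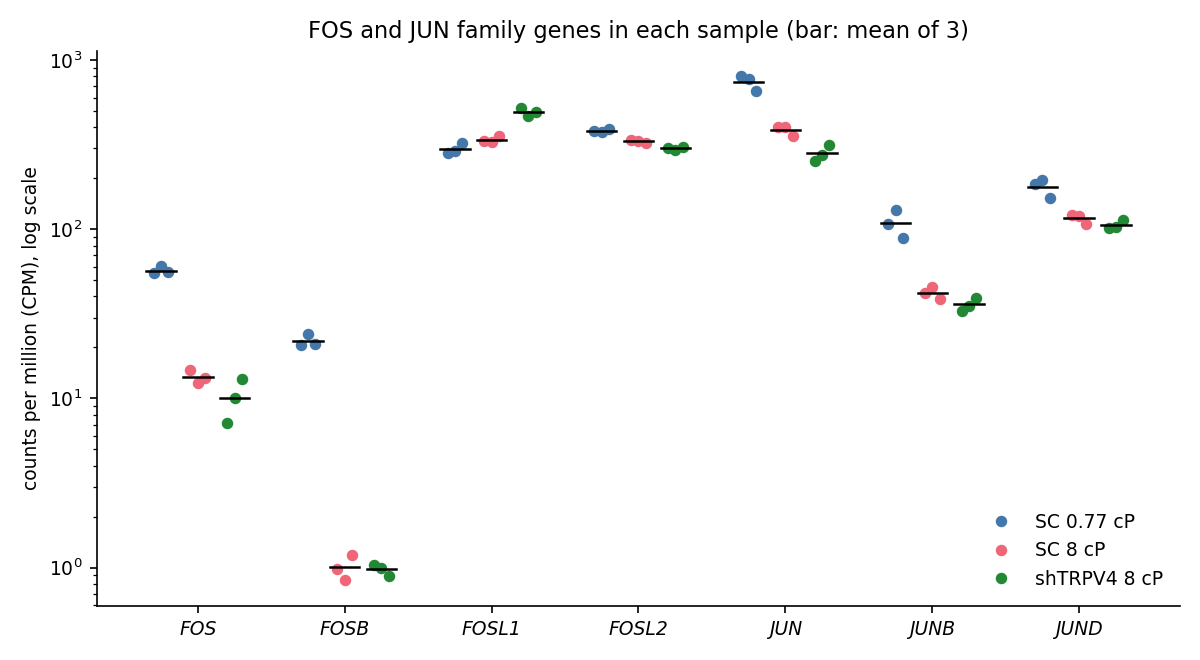
Levels in CPM of the 7 genes on a log axis, with 1 point per sample, colours for the 3 groups and a bar at each group's mean of 3. FOSB lies between 20.7 and 24.1 CPM in SC cells at 0.77 cP and between 0.838 and 1.19 CPM in both groups at 8 cP, and FOSL1 is highest in shTRPV4 cells.

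FOSB, whose protein forms AP-1 with JUN proteins and which is induced by calcium and growth factor signals, had 1951, 1549 and 2155 counts at 0.77 cP and 97, 81 and 108 counts at 8 cP. This was 20.7, 24.1 and 20.9 CPM against 0.981, 0.838 and 1.19 CPM. Every baseline sample lay far above every sample at 8 cP. The fitted difference was 21.9-fold (log2 fold change -4.45, SE 0.115).

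FOS, the prototype immediate early gene, had 55.0, 60.4 and 55.5 CPM at 0.77 cP and 14.7, 12.3 and 13.2 CPM at 8 cP. The groups were well apart and the spread within each was small, with means of 57.0 ± 3.01 and 13.4 ± 1.23 CPM (SD, n = 3). The fitted level was 4.25-fold lower at 8 cP (log2 fold change -2.09, SE 0.139). At 8 cP FOS still had 1185 to 1455 counts per sample. In these bulk samples, fewer cells that express a gene and less of its RNA per cell cannot be told apart.

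JUNB, which encodes a JUN protein that can act against JUN at some promoters, had 107, 129 and 88.2 CPM at 0.77 cP and 42.1, 45.6 and 38.5 CPM at 8 cP, 2.56-fold lower (log2 fold change -1.36, SE 0.106). Its baseline samples varied most among the members relative to their mean, and they still did not overlap with those at 8 cP. JUN, the main AP-1 transactivating subunit, had 804.5, 773 and 655 CPM at baseline and 399, 404 and 354 CPM at 8 cP, 1.93-fold lower (log2 fold change -0.95, SE 0.0825). JUND, a JUN protein that is usually expressed steadily and responds little to stimuli, went from 184, 195 and 153 to 122, 119 and 107 CPM, 1.53-fold lower (log2 fold change -0.61, SE 0.0766). For JUN, JUNB and JUND alike, replicate 3 was the lowest sample of both groups.

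The other FOS family genes, often called the FOS-related antigens, differed little. FOSL2 (FRA-2) had 380, 375 and 392 CPM at 0.77 cP and 337, 331 and 323 CPM at 8 cP (log2 fold change -0.21, SE 0.0411). FOSL1 had 283, 289 and 324 CPM at baseline and 333, 327 and 356 CPM at 8 cP (log2 fold change 0.18, SE 0.0583). The gap for FOSL1 was narrow, since the highest baseline sample (324 CPM) lay just under the lowest sample at 8 cP (327 CPM), and FOSL1 was no longer among the called members when either of SC 0.77 cP replicates 1 and 2 or of SC 8 cP replicates 1 and 3 was left out (log2 fold change 0.15 to 0.20).

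**Figure D2:**
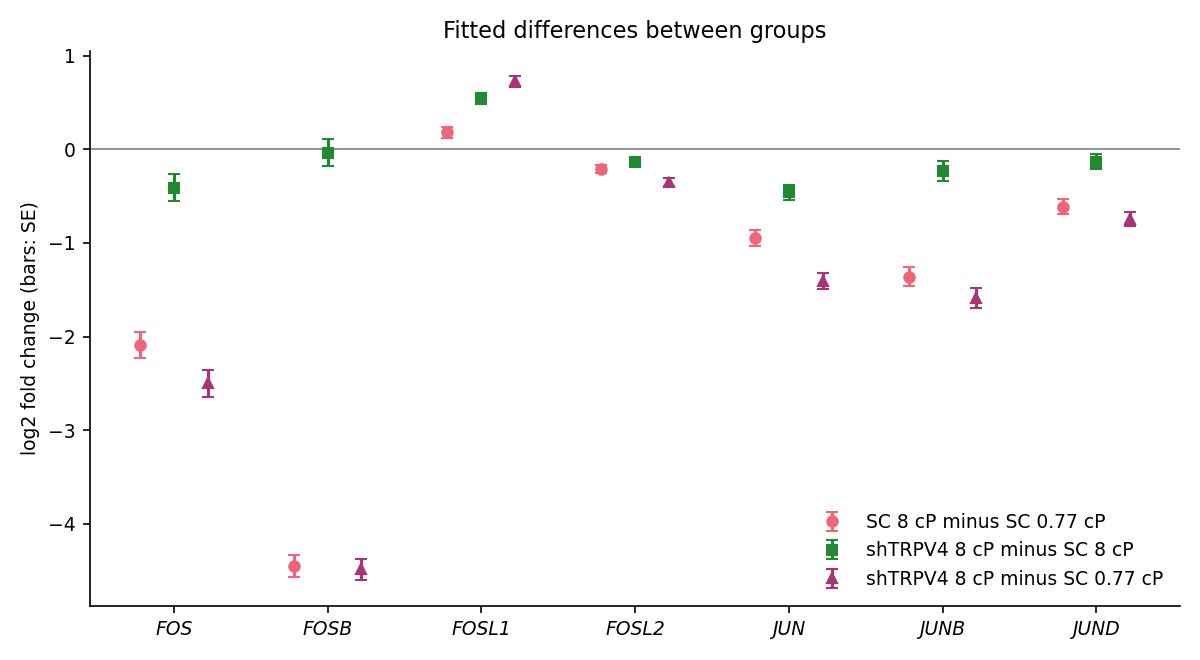
Log2 fold changes of the 7 genes from the edgeR fit, with bars of 1 SE, for the 3 comparisons. The scramble contrast and the contrast of shTRPV4 at 8 cP with the baseline run close together for FOSB (-4.45 and -4.49), and the green squares, shTRPV4 minus SC at 8 cP, are above 0 for FOSL1 and below 0 for JUN.

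The second comparison asked how the subunits in shTRPV4 cells differed from those in SC cells at 8 cP. These cells were transduced with different hairpins, so loss of TRPV4 and other differences between them cannot be told apart. This comparison uses the same SC samples at 8 cP as the first, so the values of the comparisons are not independent of each other. FOSL1 rose in shTRPV4 cells, JUN and FOSL2 fell, and FOS, FOSB, JUNB and JUND did not pass the test. Of the 7 members 3 were called, 1 higher and 2 lower, where 20% of all genes were called (9.02% higher, 11% lower). The same 3 did not overlap between the groups, against 36.3% of all genes. The median log2 fold change of the members was -0.14, and that of all genes was 6e-04.

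FOSL1 had 523, 466 and 492 CPM in shTRPV4 cells, every one of them above the 327 to 356 CPM of SC cells at 8 cP. It rose 1.46-fold (log2 fold change 0.54, SE 0.0583, edgeR adjusted p = 1.2e-05), and the call held whichever sample was left out. JUN had 254, 273 and 315 CPM in shTRPV4 cells, all below the 354 to 404 CPM of SC cells, and fell 1.37-fold (log2 fold change -0.46, SE 0.0822, edgeR adjusted p = 0.00111). FOSL2 had 301, 295 and 305 CPM against 323 to 337 CPM and fell 1.1-fold (log2 fold change -0.14, SE 0.0411, edgeR adjusted p = 0.0284). The call of FOSL2 was lost without SC 8 cP replicate 1 (adjusted p = 0.122) or 2 (0.0983) and without shTRPV4 replicate 2 (0.109).

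FOS had 7.12, 10.1 and 13.1 CPM in shTRPV4 cells, and the highest of these lay within the range of SC cells at 8 cP. Its log2 fold change was -0.41 (SE 0.143, edgeR adjusted p = 0.055). This value depended on single samples: the log2 fold change was -0.65 without shTRPV4 replicate 3 (adjusted p = 0.00142) and -0.21, not called, without shTRPV4 replicate 1. FOSB had 1.04, 0.997 and 0.896 CPM, inside the SC range, with a log2 fold change of -0.04 (SE 0.144, edgeR adjusted p = 0.897). JUNB (33.0, 35.3 and 39.4 CPM, log2 fold change -0.23, adjusted p = 0.152) and JUND (102, 102 and 113 CPM, log2 fold change -0.13, adjusted p = 0.259) overlapped with SC cells at 8 cP as well. A p above the threshold does not show that these levels were alike.

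Set beside the baseline, shTRPV4 cells at 8 cP had larger fitted differences for each of the 7 members than either other comparison, for FOSB by less than its SE. This contrast changes both the hairpin and the viscosity, which cannot be told apart in it, and it shares its samples with the other comparisons. All 7 members were called, 1 higher and 6 lower, where 42.4% of all genes were called (20.4% higher, 22% lower), and none overlapped, against 50.6% of all genes. FOSB was 22.4-fold lower (log2 fold change -4.49, SE 0.117), FOS 5.65-fold lower (-2.50, SE 0.143), JUNB 3-fold lower (-1.59, SE 0.108) and JUN 2.65-fold lower (-1.41, SE 0.0834). FOSL1 was 1.65-fold higher (0.72, SE 0.0585). JUND (-0.74, SE 0.0769) and FOSL2 (-0.35, SE 0.0411) lay between. In the scale of log2 fold changes, FOSB at 8 cP was thus about as far below baseline with the TRPV4 hairpin as with the scramble hairpin, and JUN was further below it.

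The balance of subunits was read from RPKM (CPM divided by the kilobases of merged exons), the scale on which different genes can be compared. At 0.77 cP in SC cells, JUN led with 205 ± 21.7 RPKM (SD, n = 3), ahead of FOSL1 with 158 ± 11.8, JUND with 91.9 ± 11.3, JUNB with 59.0 ± 11.2 and FOSL2 with 53.4 ± 1.26 RPKM. FOS followed with 17.9 ± 0.943 and FOSB with 3.95 ± 0.347 RPKM. The samples of JUNB and FOSL2 overlapped, and those of all other neighbours in this order did not. At 8 cP FOSL1 led in both lines on this scale, with 179 ± 8.06 RPKM in SC and 261.5 ± 15.0 RPKM in shTRPV4 cells, and JUN came next with 106 ± 7.55 and 77.4 ± 8.6 RPKM. FOSL2 then stood above JUNB, with 46.1 ± 1.03 against 22.99 ± 1.95 RPKM in SC cells and 41.9 ± 0.706 against 19.6 ± 1.77 RPKM in shTRPV4 cells. No neighbours overlapped in either group at 8 cP. FOS (4.21 ± 0.386 and 3.16 ± 0.933 RPKM) and FOSB (0.181 ± 0.0318 and 0.176 ± 0.0131 RPKM) were last in each.

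Within the FOS family, FOSL1 made up 66.9%, 66.9% and 69.3% of the summed RPKM in the baseline samples, 77.3%, 77.5% and 79.2% in SC cells at 8 cP and 86.2%, 84.7% and 84.8% in shTRPV4 cells. The ranges of the 3 groups did not overlap. The share of FOS was 7.68 ± 0.628%, 1.83 ± 0.167% and 1.04 ± 0.321% in the same order, and that of FOSB 1.70 ± 0.191%, 0.0783 ± 0.0113% and 0.0574 ± 0.00462%. FOSL2 held 22.9 ± 0.789%, 20.1 ± 0.999% and 13.7 ± 0.558%. These shares follow from the levels above and carry no test. Without division by length, FOSL2 and not FOSL1 held the highest share at baseline (50.3% against 39.3%).

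**Figure D3:**
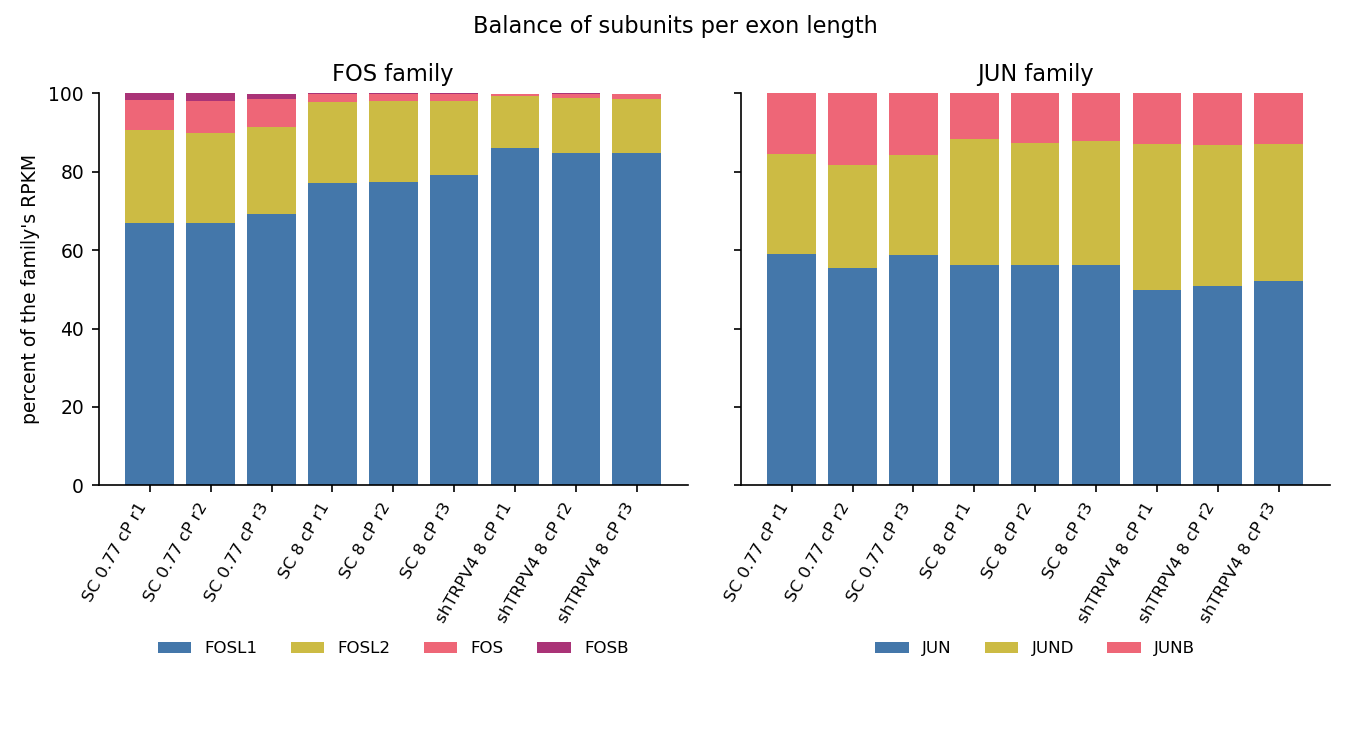
Shares of each gene in the summed RPKM of its family, as stacked bars for each of the 9 samples, with the FOS family on the left and the JUN family on the right. The FOSL1 segment averages 67.7%, 78.0% and 85.2% of the FOS family in the 3 groups, and the JUND segment 25.8%, 31.7% and 36.2% of the JUN family.

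Within the JUN family the shares moved less. JUN held 57.7 ± 2.02% at baseline, 56.1 ± 0.0447% in SC cells at 8 cP and 50.9 ± 1.14% in shTRPV4 cells. The baseline range (55.4% to 59.1%) enclosed that of SC cells at 8 cP (56.1% to 56.2%). The share of JUND was 25.8 ± 0.461%, 31.7 ± 0.466% and 36.2 ± 1.2%, with no overlap between groups, although its own level was lower at 8 cP. JUNB held 16.5 ± 1.58%, 12.1 ± 0.428% and 12.9 ± 0.135%.

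As a description of the balance between the families, the summed FOS family was 233 ± 12.6 RPKM at baseline, 230 ± 7.35 RPKM in SC cells at 8 cP and 307 ± 15.0 RPKM in shTRPV4 cells. The summed JUN family was 356 ± 41.9, 189 ± 13.4 and 152 ± 13.6 RPKM. FOS family transcripts therefore made up 39.7 ± 4.18%, 54.8 ± 2.54% and 66.9 ± 2.39% of all 7 together. The ratio of FOSL1 to JUN was 0.675, 0.718 and 0.949 at baseline, 1.60, 1.56 and 1.93 in SC cells at 8 cP and 3.949, 3.280 and 3.001 in shTRPV4 cells. It was below 1 in every baseline sample and above 1 in every sample at 8 cP. In SC 8 cP replicates 1 and 2 this rests on the division by length. Before it, JUN (399 and 403.5 CPM) exceeded FOSL1 (333 and 327 CPM) in these samples. In SC 8 cP replicate 3, FOSL1 (356 CPM) was just above JUN (354 CPM) before it. The means of SC cells at 8 cP were 386 CPM for JUN and 338 CPM for FOSL1. The ratio of FOSL1 to FOS was 8.87 ± 0.905, 42.9 ± 4.05 and 88.6 ± 31.5, the last spread reaching from 63.6 to 124. These are transcript levels, and they do not give the amounts of the proteins or which dimers formed.

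The genes most like the widest-ranging members were found by the root mean square difference of centred log2 CPM over the 9 samples, among 13396 genes. For FOSB, whose group means spanned 4.46 on the log2 scale, these were NR4A1 (0.375), EGR3 (0.506) and NR4A3 (0.513), nuclear receptor and zinc finger genes that are also immediate early genes. NR4A1 had means of 35.1, 0.997 and 1.57 CPM in the 3 groups. For FOS, which spanned 2.54, they were the MAP kinase phosphatase gene DUSP1 (0.211), the Notch target gene HES1 (0.242) and the chemokine gene CXCL8 (0.242). DUSP1 had means of 249, 53.0 and 46.0 CPM. For JUNB, which spanned 1.57, they were HES4 (0.127), SNAI2 (0.165), which encodes the mesenchymal factor SLUG, and KLF10 (0.171). Likeness of profile over 3 groups of samples says nothing of shared control.

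The pathway around AP-1 was described with 5 gene lists, chosen like the family with earlier results of these data known. Genes named as called were those with the smallest p in each list. Their adjusted p-values come from these same data and give no separate support for the changes of the members. Of the AP-1 dimer partners, 13 of 14 were tested, and in SC cells at 8 cP 5 fell and none rose, where 9.69% of all genes were called lower and 9.57% higher. The call of 1 of the 5, MAFA (adjusted p = 0.0484), was lost in 12 of 13 alternatives. ATF3, a stress-induced ATF family factor, fell from 78.0, 76.7 and 66.5 CPM to 12.9, 13.3 and 13.1 CPM, 5.65-fold (log2 fold change -2.50, SE 0.0717, edgeR adjusted p = 2.35e-12). The small MAF genes MAFF (-0.80, SE 0.0736, adjusted p = 3.71e-06) and MAFK (-0.62, SE 0.049, adjusted p = 5.6e-07) fell too. MAFF has 326 exon bases in common with PLA2G6 and MAFK 809 with TMEM184A, which are read from the opposite strand. The median of the list was -0.29, and that of all genes -0.0065. With the TRPV4 hairpin at 8 cP, 2 of the 13 partners were called, 1 in each direction, where 20% of all genes were called. MAFA, at 7 to 24 counts in those samples, rose (log2 fold change 1.22, SE 0.397, edgeR adjusted p = 0.0407), a call that was lost in 11 alternatives.

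The 10 transcription factors known to act on FOS and JUN promoters were all tested and had log2 fold changes between -0.32 and 0.23 in the first 2 comparisons. In SC cells at 8 cP 1 fell, MEF2D (-0.32, SE 0.0452, edgeR adjusted p = 0.000389), and none rose, where 19.3% of all genes were called. SRF, the factor that binds the CArG box, had means of 222, 218 and 206 CPM in the 3 groups, and CREB1 57.0, 58.7 and 56.6 CPM. With the TRPV4 hairpin, where 20% of all genes were called, 2 rose, ELK3 (0.23, SE 0.055, edgeR adjusted p = 0.00727) and MRTFA (0.21, SE 0.0528, adjusted p = 0.0106), and 1 fell, ATF1 (-0.19, SE 0.0532, adjusted p = 0.0176). ELK3 is an ETS partner of SRF and MRTFA an actin-regulated coactivator of SRF. The call of MRTFA was lost without SC 8 cP replicate 2 (adjusted p = 0.0528), and that of ATF1 without SC 8 cP replicate 2 or 3 or shTRPV4 replicate 1 (adjusted p 0.0585 to 0.0859).

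Of the MAP kinase modules upstream of AP-1, 21 of 22 genes were tested, and in SC cells at 8 cP 3 rose and 3 fell, none by more than 0.33 on the log2 scale, against 9.57% higher and 9.69% lower among all genes. MAPK3, which encodes ERK1, fell by 0.33 (SE 0.058, edgeR adjusted p = 0.002). RPS6KA4, a kinase gene of the MSK group, rose by 0.23 (SE 0.0541, adjusted p = 0.00981), and MAPK13, a p38 gene, fell by 0.21 (SE 0.0515, adjusted p = 0.011). The calls of RPS6KA4 and MAPK13 were both lost without SC 0.77 cP replicate 1 or SC 8 cP replicate 3 (adjusted p 0.0505 to 0.0735). With the TRPV4 hairpin 1 rose and 5 fell, against 9.02% higher and 11% lower among all genes. MAP2K6, a p38 activator, fell 2.96-fold from 178, 179 and 135 counts to 33, 48 and 69 counts (log2 fold change -1.57, SE 0.241, edgeR adjusted p = 0.000326), while MAP2K3, which also activates p38, rose (0.23, SE 0.0544, adjusted p = 0.00712). MAPK8, which encodes the JUN kinase JNK1, fell by 0.16 (SE 0.0432, adjusted p = 0.0143), a call lost without SC 8 cP replicate 3 (adjusted p = 0.0614).

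**Figure D4:**
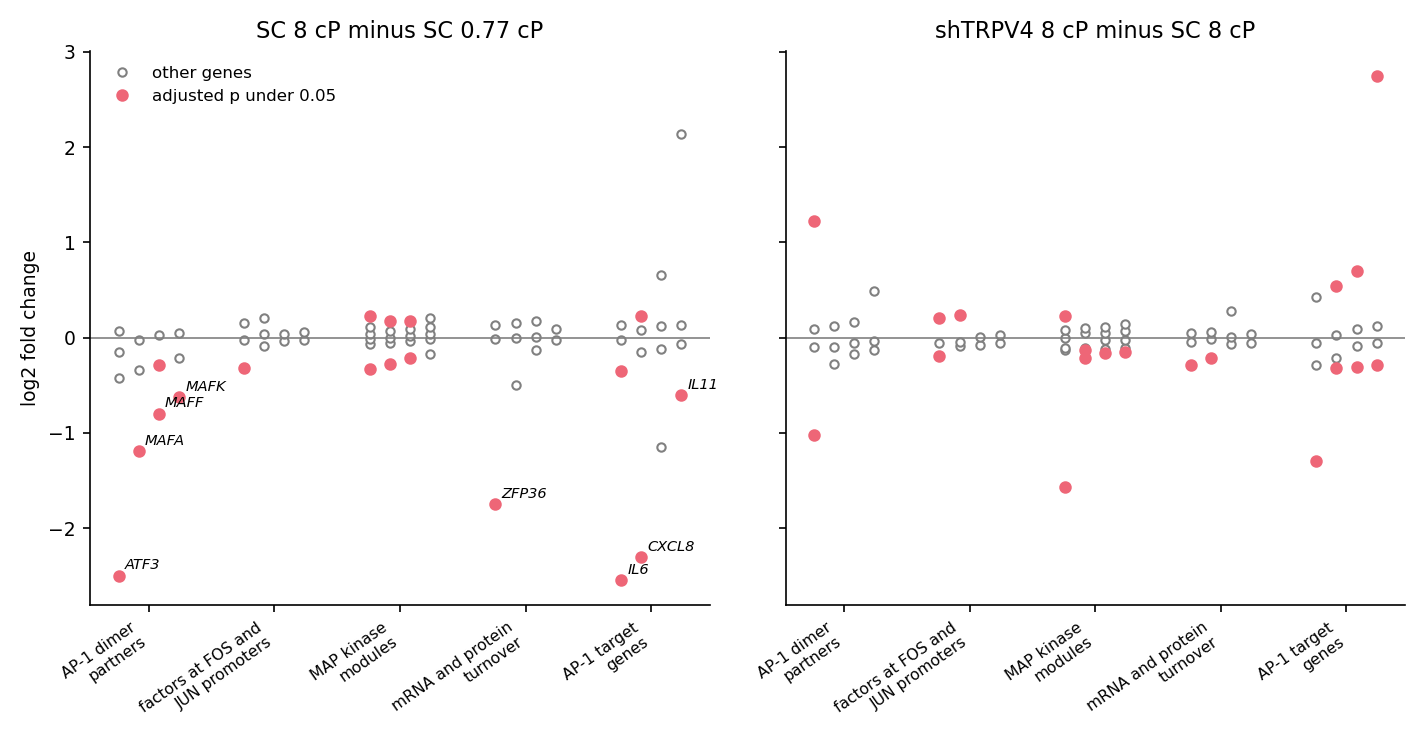
Log2 fold changes of the tested genes in the 5 pathway lists, for SC at 8 cP minus SC at 0.77 cP on the left and shTRPV4 minus SC at 8 cP on the right, with filled points for genes with an adjusted p under 0.05. Genes called with a change above 0.5 are named on the left. ATF3, ZFP36, IL6 and CXCL8 lie below -1.7 there.

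The 11 genes that act on turnover of FOS and JUN mRNA and protein were all tested. In SC cells at 8 cP 1 fell, ZFP36, and none rose, where 19.3% of all genes were called. With the TRPV4 hairpin 2 fell and none rose, where 20% of all genes were called. ZFP36 encodes tristetraprolin, which binds AU-rich elements and speeds decay of the mRNA. It fell 3.36-fold from 53.5, 59.1 and 52.9 to 17.3, 15.3 and 16.7 CPM (log2 fold change -1.75, SE 0.0616, edgeR adjusted p = 2.63e-11), and in shTRPV4 cells it fell further, to 13.8, 13.2 and 13.3 CPM (-0.29, SE 0.0631, adjusted p = 0.00446). FBXW7, a ubiquitin ligase subunit gene that acts on JUN, fell by 0.21 with the hairpin (SE 0.0659, adjusted p = 0.0325), a call lost without SC 8 cP replicate 1 or 2 or shTRPV4 replicate 2 or 3 (adjusted p 0.0915 to 0.124).

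AU-rich elements were counted in the 3′ UTR of the reference transcript of each member. FOS held 5 copies of ATTTA in 806 bases, or 6.20 per kilobase, at or above 94.6% of 18780 transcripts, whose median was 1.55 per kilobase. JUNB held 2 in 500 bases (4.0 per kilobase), JUN 3 in 1284 (2.34), FOSL2 9 in 4869 (1.85), FOSB 3 in 2167 (1.38), JUND 1 in 747 (1.34) and FOSL1 1 in 837 (1.195). FOSB, JUND and FOSL1 were below the median of all transcripts. A link between these counts and the differences between conditions was not tested. The longer element TTATTTATT was present in FOS and FOSL2, and in 8.6% of all transcripts. A match of letters does not show that the element is used.

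Of the 19 AP-1 target genes known from carcinoma cells, 16 were tested. In SC cells at 8 cP 1 rose and 4 fell, against 9.57% higher and 9.69% lower among all genes. Log2 fold changes of the tested targets, called or not, ran from -2.54 to 2.14. IL6, the inflammatory cytokine gene, fell from 29.7, 36.6 and 21.6 to 4.92, 5.36 and 4.73 CPM (log2 fold change -2.54, SE 0.16, edgeR adjusted p = 3.82e-08), and CXCL8 from 58.2, 69.0 and 37.4 to 11.1, 12.3 and 9.91 CPM (-2.30, SE 0.198, adjusted p = 1.7e-06). Both were lowest at baseline in replicate 3, and 428 exon bases of IL6 are also covered by opposite-strand genes. LIF fell by 0.35 (SE 0.049, adjusted p = 0.000336). The invasion genes PLAU (urokinase) and PLAUR (its receptor) had log2 fold changes of -0.07 and -0.12 and did not pass the test (adjusted p = 0.391 and 0.0674).

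With the TRPV4 hairpin at 8 cP 3 of the 16 targets rose and 4 fell, against 9.02% higher and 11% lower among all genes. TIMP1, an inhibitor of matrix metalloproteinases, fell 1.24-fold (log2 fold change -0.31, SE 0.0499, edgeR adjusted p = 0.000435). IL6 had a log2 fold change of 0.42 and CXCL8 of -0.21 in this comparison, and neither passed the test (adjusted p = 0.084 and 0.52). IL6 was called higher in 5 alternatives, among them the fit on 6 samples (adjusted p = 0.0267) and the fit without shTRPV4 replicate 1 (0.0216). CXCL8 was called lower with no filter on low counts (0.0308), and leaving out 1 sample moved it between -0.42 and -0.003. Log2 fold changes of the tested targets, called or not, ran from -1.29 to 2.75. The list median was -0.06, and that of all genes 6e-04.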

How the data were processed

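The authors aligned strand-specific poly(A) reads to GRCh38.p13 with HISAT2 2.2.1 and counted reads per Ensembl gene with HTSeq 0.13.5, and the deposited values are raw counts per gene for each of the 9 samples. The strand setting of the counting is not given in the sources used here, which bears on genes that overlap on opposite strands. Groups were taken from the labels. Symbols, exon lengths and positions came from the GENCODE annotation release 44 of GRCh38, and promoter sequences from RefSeq (GRCh38).

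Counts were tested with edgeR 4.0.16 (R 4.3.3): TMM scaling, filterByExpr, and a quasi-likelihood fit with 1 coefficient per group over all 9 samples. Adjusted p-values are Benjamini-Hochberg values over 18264 genes, with a threshold of 0.05. The SE of a log2 fold change is its size divided by the square root of F. CPM used the scaled library sizes, and RPKM divided CPM by the merged exon length. Self-tests on simulated counts were run. Alternatives were DESeq2 1.42.0, upper quartile scaling, other filters, a replicate block, fits on 6 samples and leaving out each sample.

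The members and the gene lists were chosen with earlier results of these data known. Named genes were the members, TRPV4, up to 3 called genes with the smallest p from each list in the first 2 comparisons, and the 3 genes most like each of the 3 widest-ranging members. Some genes that this rule names are not reported here. Replicates differed by more than sampling noise. The shallowest library held 64571681 counts. The lowest member, FOSB at 8 cP, rests on 78 to 108 counts per sample, and every other member on at least 652.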

Additional observations from a re-analysis of the deposited data

How the results depend on the processing

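Every member kept its direction in the scramble contrast and in the contrast of shTRPV4 at 8 cP with the baseline under all alternatives. In fits that left out 1 sample, 6 to 7 members were called in the scramble contrast, 2 to 4 with the TRPV4 hairpin at 8 cP and 7 in the contrast with the baseline. The same fits called 1409 to 4349 genes in the scramble contrast, 2179 to 3836 with the hairpin and 6318 to 7705 against the baseline. The first count fell to 1409 without SC 0.77 cP replicate 1, 1927 without SC 0.77 cP replicate 2 and 1418 without SC 8 cP replicate 3, and the second to 2361 and 2179 without SC 8 cP replicate 1 or 2. The other alternatives called 3470 to 4006, 3607 to 3902 and 7189 to 7752 genes. With no filter on low counts FOS (adjusted p = 1.9e-07) and JUNB (0.00101) were called lower with the hairpin and FOSL2 was not (0.0555), and JUNB was also called in the fit on the 6 samples (0.0429). The causes were not tested.

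The balance depends on the length that is used. From CPM, without length, FOSL1 held 39.26%, 49.53% and 61.28% of the FOS family in SC at 0.77 cP, SC at 8 cP and shTRPV4, FOSL2 50.34%, 48.36% and 37.34%, and JUN 72.35%, 70.93% and 66.38% of the JUN family. With reference transcript lengths FOSL1 held 66.08% at 0.77 cP, and JUN 60.31%, 58.76% and 53.57%.

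A fit with the replicate number as a block called 3475, 3607 and 7731 genes and 7, 3 and 7 members. Deviations of same-numbered samples correlated with r from -0.0546 to 0.0904 over 9 pairs. For differently numbered samples r ran from -0.1063 to 0.1148 over 18 pairs. Among scramble samples alone, same-numbered pairs across the viscosities had r of 0.0455, 0.032 and 0.0904. Every differently numbered scramble pair was lower, from -0.0591 to 0.0167. Correlations this small do not settle whether equal numbers mark paired samples, which was not tested.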
